A study of Mus musculus with 16 samples.

Results

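The miR-23, miR-27 and miR-24 family is encoded by a pair of paralogous clusters in the mouse genome, and its levels were compared between WT littermates and Dgcr8+/- mice. The a cluster holds the hairpins Mir23a, Mir27a and Mir24-2, and the b cluster holds Mir23b, Mir27b and Mir24-1. The 7 family members were taken by their exact names on the array. They are mmu-miR-23a-3p, mmu-miR-27a-3p and mmu-miR-24-2-5p of the a cluster, mmu-miR-23b-3p, mmu-miR-27b-3p and mmu-miR-24-1-5p of the b cluster, and mmu-miR-24-3p, which both clusters encode. They are 7 of the 1881 mature mouse miRNAs on the array and 7 of the 495 that could be tested, that is, those the scanner software detected on at least 8 of the 16 arrays. All 7 were detected in all 16 mice, so none entered the test through 1 genotype alone.

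The lateral ventricle (LV) wall, the tissue that borders the ventricle and carries the ciliated ependymal cells, came from 8 WT and 8 Dgcr8+/- mice, all males 8 months old on a C57BL/6J background. Dgcr8+/- mice carry 1 functional copy of Dgcr8 in every cell, and the labels name no treatment for either genotype. Each mouse was measured on 1 single-colour array. The arrays lay on 2 slides, of which slide 1 held 6 WT and 2 Dgcr8+/- arrays and slide 2 held 2 WT and 6 Dgcr8+/- arrays.

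Dgcr8 is the RNA-binding partner of the nuclease Drosha, and together they cut hairpins out of primary transcripts, after which Dicer releases the mature arms. Each cluster is transcribed as a unit, so that its hairpins share a primary transcript, and the mature products recognise targets mainly through the seed near their 5′ end. The family is best known in blood vessels, where it is abundant in endothelial cells and bears on angiogenesis, and its members have also been studied in muscle, heart and lymphocytes.

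Mature sequences are shown because they define which members can share targets and how far paralogues can be told apart by hybridisation. They were taken from RefSeq (GRCm38.p6), which gave 6 of the 7 members. Mmu-miR-23b-3p was not among them. Capitals mark the seed, bases 2 to 8 from the 5′ end.
mmu-miR-23a-3p: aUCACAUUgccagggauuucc
mmu-miR-27a-3p: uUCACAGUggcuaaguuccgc
mmu-miR-27b-3p: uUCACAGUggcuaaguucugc
mmu-miR-24-3p: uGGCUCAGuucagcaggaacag
mmu-miR-24-2-5p: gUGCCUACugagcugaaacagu
mmu-miR-24-1-5p: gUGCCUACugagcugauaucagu
MiR-27a-3p and miR-27b-3p have 1 substitution over 21 bases, C19U (a form first, counted from the 5′ end), and the same seed. The 5p arms of the miR-24 hairpins also have a seed in common. They are identical over the first 16 bases and the last 4 and differ in between, with 22 bases in miR-24-2-5p and 23 in miR-24-1-5p. Within the first 8 bases, miR-23a-3p and miR-27a-3p differ by A1U and U7G, so their seeds differ at 1 base. The copies of miR-24-3p from the a and the b cluster are the same sequence, so the array cannot assign its signal to a cluster.

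Both clusters lie on the plus strand (GRCm38.p6). The 3 hairpins of the a cluster span chr8:84208518-84208921, 404 bases between Mir181c and Zswim4. Those of the b cluster span chr13:63300484-63301275, 792 bases inside the span of Aopep. Exons and introns were not analysed here. The mature miR-27a-3p occupies chr8:84208727-84208747 and miR-27b-3p chr13:63300760-63300780. MiR-24-3p is encoded at chr8:84208875-84208896 and again at chr13:63301251-63301272.

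Levels are log2 of the array signal after quantile normalization, which forces 1 common signal distribution on the arrays, so that a change is read against the rest of the array. A log2 fold change is Dgcr8+/- minus WT. Signals of different probes were not compared as levels, since probes differ in how well they hybridise. In RNA from a whole tissue, fewer cells of a type and less RNA per cell cannot be told apart. On this scale the family changed little. MiR-24-3p was higher in Dgcr8+/- mice (lower with no normalization between arrays), the other 6 members did not pass the adjusted threshold of 0.05 from limma, and 0 were lower, whereas 28.3% of the 495 tested miRNAs were higher and 27.9% were lower, 56.2% in either direction. At an unadjusted p below 0.05 from limma, the count was 2 of 7 members, beside 321 of the 495 tested miRNAs (64.8%). The median size of the log2 fold change, whatever its sign, was 0.0893 over the 7 members and 0.269 over all tested miRNAs. The signed medians were 0.0381 and 0.037. With no normalization between arrays, 6 of the 7 members were lower, beside 293 of the 495 tested miRNAs, and 0 were higher.

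In miR-23a-3p, the log2 signal of WT mice had a lowest value of 10.25, a median of 10.33 and a highest of 10.48. Dgcr8+/- mice had 10.25, 10.37 and 10.53. The genotypes covered nearly the same range. Its log2 fold change was 0.04 ± 0.05 (standard error; limma adjusted p = 0.544), with a 95% interval from −0.07 to 0.15. Its b paralogue miR-23b-3p had a lowest value of 10.85, a median of 10.92 and a highest of 11.09 in WT mice, and 10.77, 10.96 and 11.00 in Dgcr8+/- mice. These ranges overlapped as well. The log2 fold change was −0.04 ± 0.05 (standard error; limma adjusted p = 0.455), with an interval from −0.15 to 0.06.

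MiR-27a-3p lay between 8.75 and 9.05 in WT mice (median 8.95) and between 8.92 and 9.25 in Dgcr8+/- mice (median 8.98). In 3 of 8 Dgcr8+/- mice it exceeded the highest WT mouse, yet the ranges overlapped. The log2 fold change was 0.09 ± 0.06 (standard error; limma adjusted p = 0.187), with an interval from −0.03 to 0.21. MiR-27b-3p, which has the same seed, lay between 9.68 and 9.98 in WT mice (median 9.74) and between 9.53 and 9.76 in Dgcr8+/- mice (median 9.68). All 8 Dgcr8+/- mice were under the WT mean, and 4 of them were under every WT mouse. The log2 fold change was −0.11 (standard error 0.05, unadjusted p = 0.0467, adjusted p = 0.0736 from limma). Without WT replicate 5, the highest of all 16 mice, it was −0.08 (adjusted p = 0.145 from limma). Without Dgcr8+/- replicate 2 it was −0.13 and past the threshold (adjusted p = 0.0333 from limma).

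**Figure D1:**
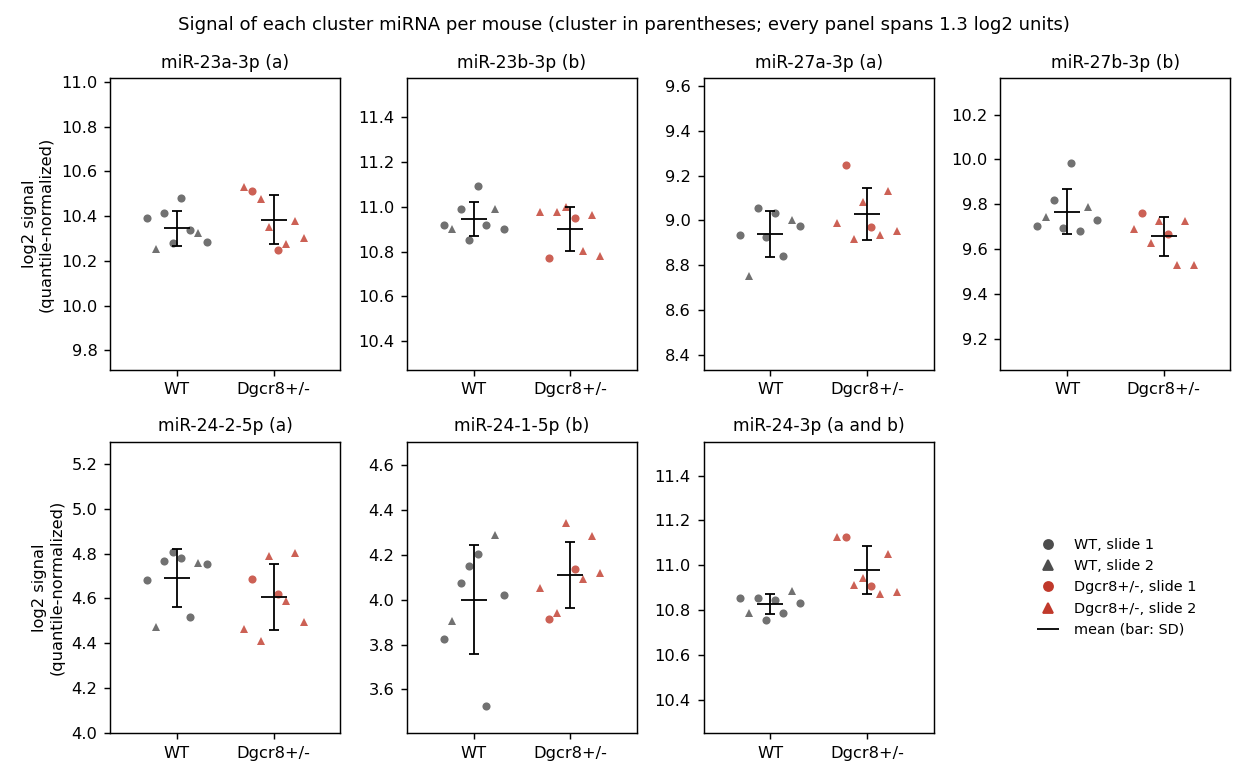
Each panel plots the log2 signal (quantile-normalized) of 1 member in each of the 8 WT mice (grey) and 8 Dgcr8+/- mice (red), with circles for slide 1 and triangles for slide 2; horizontal marks are means and bars are SD. The genotypes overlapped in every panel, and 6 of 8 Dgcr8+/- mice lay above the highest WT mouse in miR-24-3p, whose direction turned with no normalization.

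MiR-24-3p, the one mature product that both clusters encode, lay between 10.76 and 10.89 in WT mice (median 10.84). In Dgcr8+/- mice it lay between 10.87 and 11.13 (median 10.93). Thus 6 of 8 Dgcr8+/- mice lay above every WT mouse, and all 8 lay above the WT mean, while the lowest Dgcr8+/- mice fell within the WT range. The log2 fold change was 0.15 ± 0.05 (standard error; limma adjusted p = 0.0107), a 1.11-fold difference, with a 95% interval from 0.05 to 0.25. It was 0.20 on slide 1 and 0.13 on slide 2. The 2 probes of miR-24-3p gave 0.15 and 0.16. The spread between mice was 0.04 in WT and 0.11 in Dgcr8+/- mice (SD, n = 8 each).

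The direction of miR-24-3p depended on the scaling. It was higher by 0.15 after quantile normalization, but the log2 fold change was −0.34 (adjusted p = 0.0163 from limma) with no normalization between arrays, where the median over all 495 tested miRNAs was −0.39. Without normalization 0 miRNAs were higher and 293 lower, against 140 and 138 with it. When each array was scaled to the 75th percentile of all probes, miR-24-3p was at 0.02 (adjusted p = 0.86 from limma). With spots kept despite an outlier mark it was 0.19 (adjusted p = 0.0739 from limma).

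The 5p arms of the miR-24 hairpins were dim. Of 30 spots per miRNA, 13 to 30 were well above background for miR-24-2-5p and 5 to 18 for miR-24-1-5p, against 30 on every array for the other 5 members. MiR-24-2-5p of the a cluster lay between 4.47 and 4.81 in WT mice (median 4.76) and between 4.41 and 4.80 in Dgcr8+/- mice (median 4.61). MiR-24-1-5p of the b cluster lay between 3.53 and 4.29 in WT mice (median 4.05) and between 3.91 and 4.34 in Dgcr8+/- mice (median 4.11). Both overlapped between genotypes. The log2 fold change was −0.09 for miR-24-2-5p (standard error 0.07, adjusted p = 0.294 from limma) and 0.11 for miR-24-1-5p (standard error 0.10, adjusted p = 0.335 from limma). Their 95% intervals ran from −0.23 to 0.06 and from −0.10 to 0.31, respectively. For miR-24-1-5p the log2 fold change was 0.04 without WT replicate 6 and 0.05 with the slide as a block (adjusted p = 0.674 and 0.715 from limma). Scaled to the 75th percentile of probes detected on all arrays, it was 0.292 and past the threshold (adjusted p = 0.00332 from limma). With no normalization it was −0.243 (adjusted p = 0.177 from limma).

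The opposite arms mmu-miR-23a-5p, mmu-miR-23b-5p, mmu-miR-27a-5p and mmu-miR-27b-5p were detected on 0 of 16 arrays. So were mmu-miR-3074-5p, mmu-miR-3074-1-3p and mmu-miR-3074-2-3p, which come from the strand opposite the miR-24 hairpins. None of these 7 miRNAs was tested.

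Over the 7 members, 0 had genotypes whose signals did not overlap, beside 24.2% of the 495 tested miRNAs. Each member was read by 2 probes of 15 spots. For miR-27b-3p the probes gave genotype differences of −0.16 and 0.02, of opposite sign. For miR-27a-3p they gave 0.15 and 0.06, for miR-23a-3p 0.09 and 0.01, and for miR-23b-3p −0.05 and −0.03. Those of miR-24-2-5p gave −0.07 and −0.10, and those of miR-24-1-5p 0.22 and 0.07. The probe sequences were not used here, and whether a probe reads 1 paralogue alone was not tested.

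**Figure D2:**
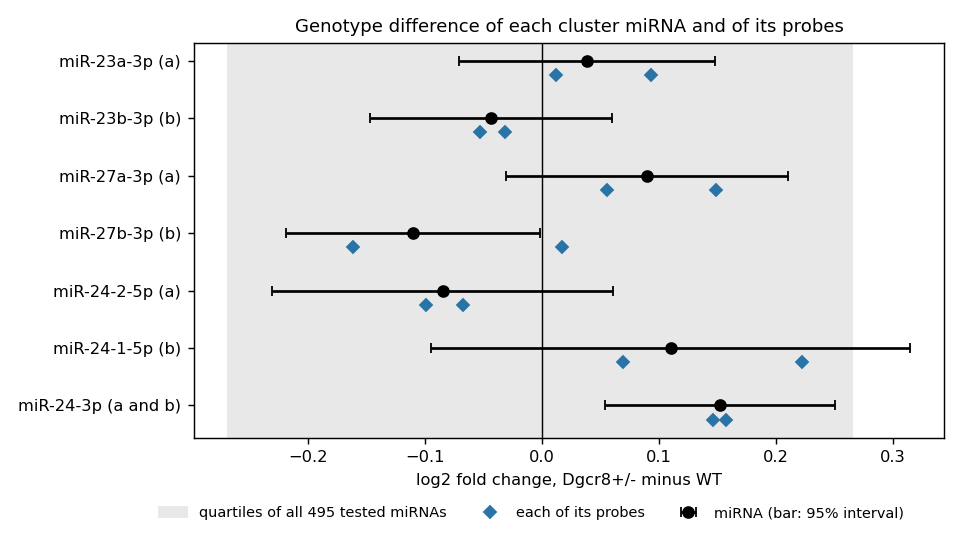
The horizontal axis is the log2 fold change (Dgcr8+/- minus WT, log2 of quantile-normalized signal), with a black point and 95% interval for each member, blue diamonds for its 2 probes, and a grey band from −0.269 to 0.265, the quartiles of all 495 tested miRNAs. On this scale the interval of miR-24-3p (0.05 to 0.25) lies above 0 (the value was −0.34 with no normalization), and the probes of miR-27b-3p (−0.16 and 0.02) lie on either side of 0.

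The a and b clusters were next compared within each array, by subtracting the b paralogue from the a paralogue. This difference is not a ratio of abundances, because it holds the unequal response of the probes, but it can be compared between genotypes. A scale factor common to an array also cancels in it. Between genotypes, the miR-27 paralogues shifted towards the a form (unequally by probe, and not past the threshold for every combination of probes). The 5p arms of miR-24 shifted towards the b form (not past the threshold with the slide as a block). The miR-23 paralogues did not pass the test after quantile normalization, but passed with no normalization between arrays and with cyclic loess. The genotype differences of the 3 pairs had no common sign. P-values are from 2-sided exact permutation tests over every grouping of the 16 mice into 8 and 8, adjusted by Benjamini-Hochberg over the 3 pairs.

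The within-array difference of miR-27a-3p minus miR-27b-3p lay between −0.99 and −0.76 in WT mice (median −0.78). In Dgcr8+/- mice it lay between −0.71 and −0.51 (median −0.62). All 8 Dgcr8+/- mice lay above every WT mouse. The means were −0.83 ± 0.09 and −0.63 ± 0.07 (SD, n = 8 each), which differ by 0.20 (standard error 0.04, exact p = 0.000155, adjusted p = 0.000466). No smaller exact p is possible with 8 mice per genotype. The shift was 0.20 on slide 1 and 0.25 on slide 2, and with the slide as a block it was 0.23 (exact permutation within slides, adjusted p = 0.00383). Genotypes that do not overlap were frequent among such differences, however. They were found in 23.8% of all 122265 pairs of tested miRNAs, and 68.9% of these pairs had a larger genotype difference, with a median size of 0.342.

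**Figure D3:**
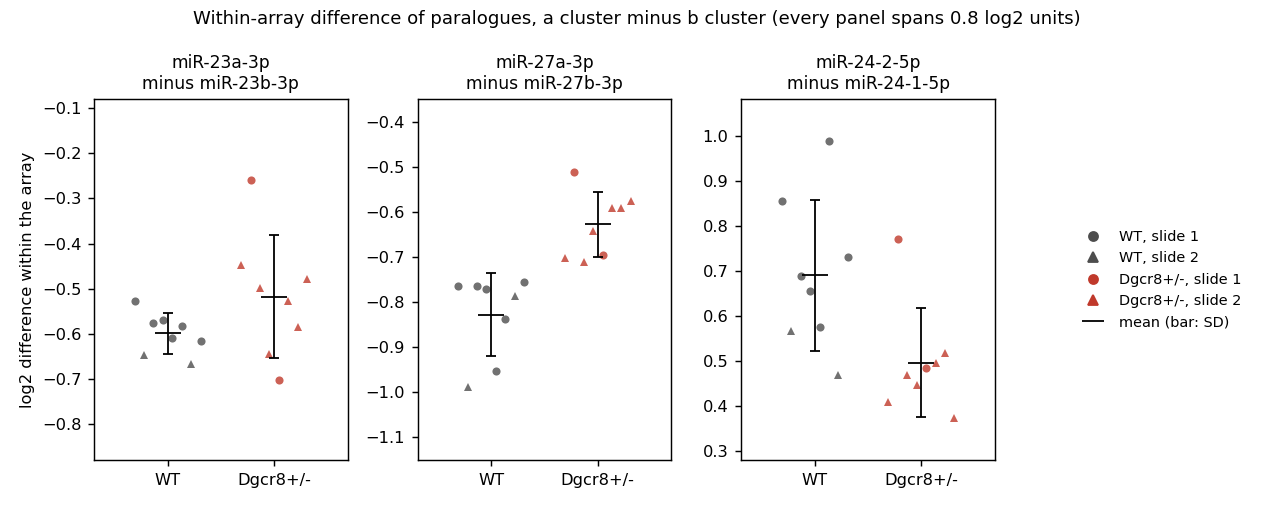
Each panel plots, for 1 pair of paralogues, the log2 signal of the a form minus that of the b form on each array, for 8 WT (grey) and 8 Dgcr8+/- mice (red), with circles for slide 1, triangles for slide 2, marks for means and bars for SD. In the miR-27 panel the highest WT mouse is at −0.76 and the lowest Dgcr8+/- mouse at −0.71, while the other panels overlap.

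The miR-27 shift was not carried equally by the probes. With 1 of the 2 miR-27b-3p probes it was 0.31 against 1 miR-27a-3p probe and 0.22 against the other (adjusted p = 0.00093 for each by exact permutation, adjusted over 12 probe pairs), and the genotypes did not overlap in either case. With the other miR-27b-3p probe it was 0.13 (adjusted p = 0.022 by exact permutation) and 0.04 (adjusted p = 0.345 by exact permutation). All 4 combinations had the same sign, but they share probes and arrays and are not independent. They were chosen after the data were seen.

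For miR-24-2-5p minus miR-24-1-5p, WT mice lay between 0.47 and 0.99 (median 0.67) and Dgcr8+/- mice between 0.37 and 0.77 (median 0.48). In 3 of 8 Dgcr8+/- mice the value fell below every WT mouse, and in 7 of 8 it fell below the WT mean of 0.69. The genotype difference was −0.19 (standard error 0.07, exact p = 0.0183, adjusted p = 0.0275). Within slides it was smaller, −0.12 on slide 1 and −0.07 on slide 2, and it did not pass with the slide as a block (−0.09, adjusted p = 0.196 by exact permutation within slides). It also lost the threshold without WT replicate 1, WT replicate 6, Dgcr8+/- replicate 1 or Dgcr8+/- replicate 8, at −0.17, −0.15, −0.18 and −0.18, and the highest of these adjusted p was 0.0548 by exact permutation. Both arms are dim, and with a normexp background correction, which adds an offset of 50 signal units, the difference was −0.05 (adjusted p = 0.0159 by exact permutation).

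For miR-23a-3p minus miR-23b-3p, WT mice lay between −0.67 and −0.53 (median −0.60) and Dgcr8+/- mice between −0.70 and −0.26 (median −0.51). The Dgcr8+/- range enclosed the WT range, with an SD of 0.14 against 0.05. The genotype difference was 0.08 (standard error 0.05, exact p = 0.124, adjusted p = 0.124). It was 0.10 on slide 1 and 0.13 on slide 2. Without Dgcr8+/- replicate 5 it was 0.11 and past the threshold (adjusted p = 0.0287 by exact permutation), and without Dgcr8+/- replicate 2 it was 0.04 (adjusted p = 0.248 by exact permutation). The call depended on the normalization. With no normalization between arrays the difference was 0.102 and past the threshold (adjusted p = 0.0174 by exact permutation). With cyclic loess it was 0.0971 and also past it (adjusted p = 0.0225 by exact permutation).

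**Figure D4:**
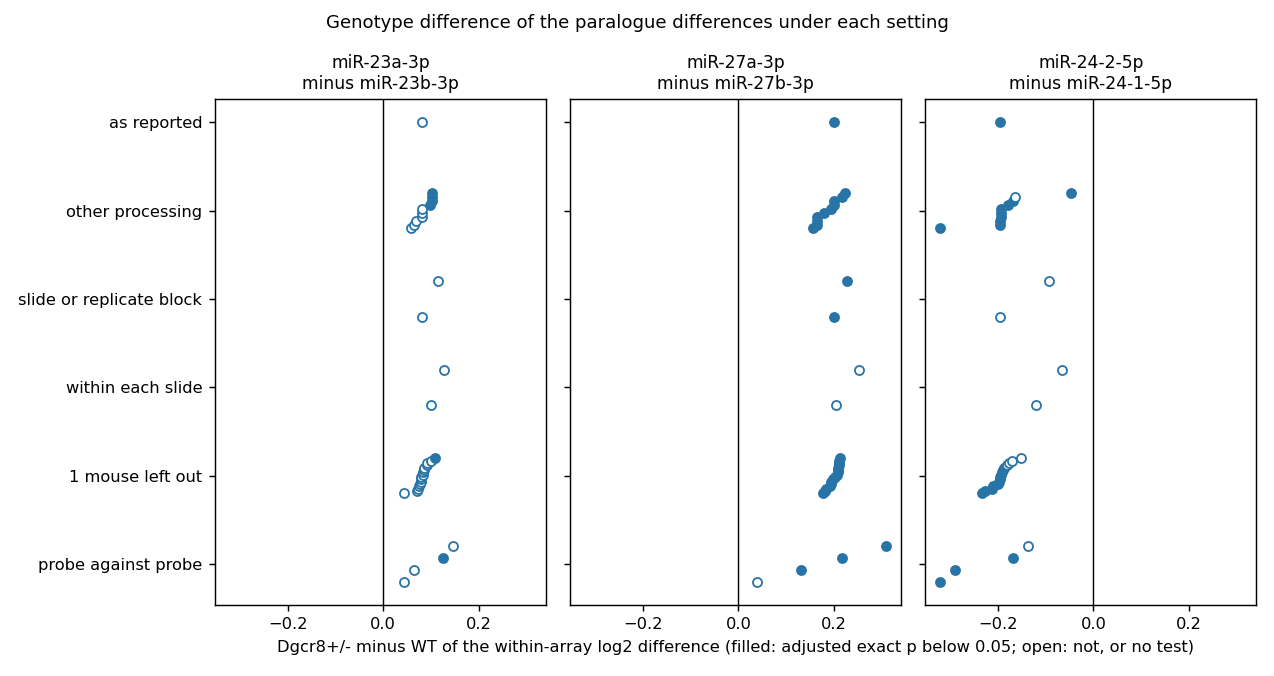
For each pair of paralogues, points give the genotype difference (Dgcr8+/- minus WT) of the within-array log2 difference as reported, with other processing, with a slide or replicate block, within each slide, with 1 mouse left out and for each combination of probes; filled points have an adjusted exact p below 0.05. The miR-27 points stay between 0.0387 and 0.31 and those of the miR-24 5p arms between −0.321 and −0.046.

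Variation between mice of the same genotype was described by Pearson's r over the 16 arrays after each genotype's mean was subtracted, with no test. The arrays share slides and the normalization, and Dgcr8+/- replicate 2, which had the lowest median signal before normalization (5.27 on the log2 scale), was also left out. Among cluster mates, miR-27a-3p and miR-24-2-5p had an r of 0.79 (0.86 without that mouse). MiR-23b-3p and miR-27b-3p had 0.64 (0.91 without it), and miR-23a-3p and miR-27a-3p had 0.48 (0.35 without it). Cluster mates were not uniformly alike, and for miR-23a-3p and miR-24-2-5p r was near 0 (−0.07 without that mouse).

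Paralogues had values in the same range. Across the clusters r was 0.68 for the miR-27 pair, 0.69 for the 5p arms of miR-24 and 0.39 for the miR-23 pair. Without Dgcr8+/- replicate 2 the last was 0.67. MiR-24-3p had an r of 0.71 with miR-23a-3p and 0.66 with miR-27a-3p of the a cluster, and of 0.22 with miR-23b-3p and 0.59 with miR-27b-3p of the b cluster. Without that mouse these were 0.64, 0.51, 0.57 and 0.53, so that the lower value for miR-23b-3p rested on it.

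**Figure D5:**
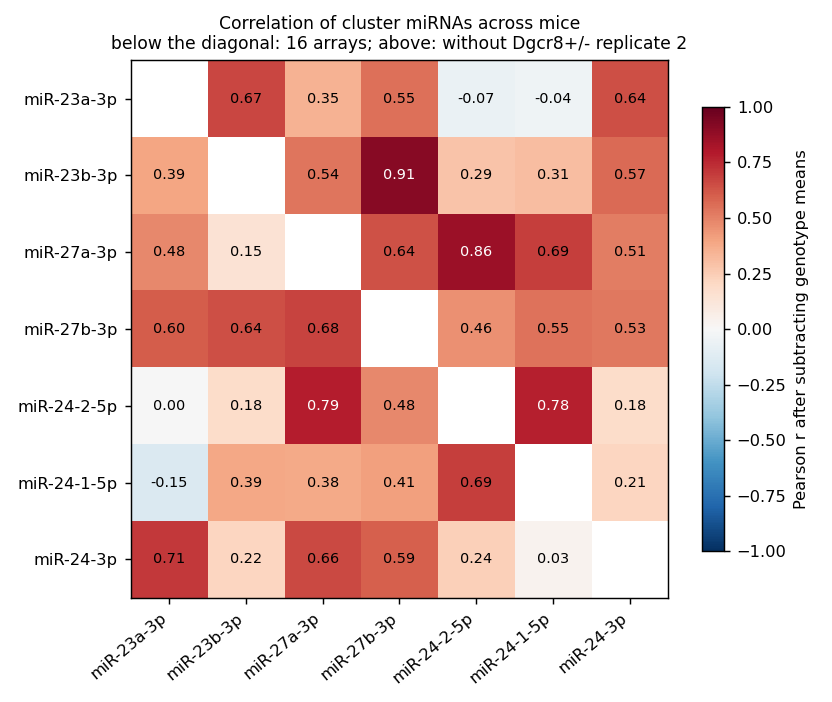
Colours and figures give Pearson's r between members over mice after subtracting the genotype means, over 16 arrays below the diagonal and without Dgcr8+/- replicate 2 above it. The value for miR-23b-3p and miR-27b-3p is 0.64 below and 0.91 above the diagonal.

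The 3 miRNAs outside the clusters with the most similar pattern, of 488 tested, were named for each of the 5 bright members. For miR-23a-3p they were miR-16-5p (r of 0.89), miR-20a-5p (0.87) and miR-20b-5p (0.87). For its paralogue miR-23b-3p they were miR-350-3p (0.93), miR-100-5p (0.92) and miR-181b-5p (0.91). The miR-23 paralogues thus had different nearest miRNAs. For miR-27a-3p they were miR-101c (0.85), miR-101a-3p (0.85) and miR-33-5p (0.85), and for miR-27b-3p miR-26b-5p (0.92), miR-219a-5p (0.84) and miR-338-5p (0.81). These lists did not overlap either, which lists of 3 out of 488 can do even where patterns are similar. For miR-24-3p they were miR-17-5p (0.77), miR-7216-5p (0.72) and miR-16-5p (0.69). Without Dgcr8+/- replicate 2, the nearest miRNA was the one named first for miR-23a-3p, miR-23b-3p and miR-27b-3p, and miR-101a-3p for miR-27a-3p. For miR-24-3p without that mouse, miR-17-5p ranked 2, miR-7216-5p ranked 5 and miR-16-5p, also named for miR-23a-3p, ranked 12 (r of 0.55).

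Markers of cell types in the LV wall were read on the same arrays. Of 7 miRNAs of multiciliated cells, 5 were tested, and miR-449b and miR-449c-5p were detected on no array. The log2 fold changes of these 5 were 0.15 to 0.36, and 0 passed the threshold. Under scaling by the 75th percentile of probes detected on all arrays, 3 of 5 were higher (miR-34b-3p, miR-34c-3p and miR-449a-5p), whereas with no normalization the 5 values were −0.21 to −0.05 and 0 passed. The summed multiciliated level ranged from 9.09 to 10.33 on the log2 scale in WT and from 9.77 to 10.62 in Dgcr8+/- mice. Of the endothelial markers, miR-126a-5p was higher (log2 fold change 0.16, adjusted p = 0.0193 from limma, but −0.36 with no normalization) and miR-126a-3p had 0.0036 (adjusted p = 0.956 from limma). The summed endothelial level ranged from 10.58 to 10.71 on the log2 scale in WT and from 10.45 to 10.79 in Dgcr8+/- mice. Of the mural markers, miR-143-3p was higher (0.22, adjusted p = 0.0386 from limma, but −0.25 with no normalization) and miR-145a-5p had 0.16 (adjusted p = 0.131 from limma), and their summed level ranged from 6.87 to 7.19 and from 6.95 to 7.60. The choroid plexus list had 1 of 2 lower, the red blood cell list 1 of 3 lower and the oligodendrocyte list 1 of 3 higher. The neuron list had 1 lower and 1 higher of 4, and the immune list 1 lower and 1 higher of 5 tested. With no normalization, the endothelial list had 2 lower, with miR-126a-3p at −0.448 (adjusted p = 0.0122 from limma). The choroid plexus list then had 2 lower, red blood cell 3, oligodendrocyte 1, neuron 4, immune 5 and mural 0, and 0 were higher. The part of the markers in the miR-24-3p and miR-27 results was not tested.

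Before normalization, the signals of all miRNA spots on an array summed to between 21545358 and 29763412 in WT and between 18528866 and 23440575 in Dgcr8+/- mice, and 495 to 540 and 467 to 492 miRNAs were detected per array, respectively. The number of arrays limits the precision.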

How the data were processed

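Total RNA of the LV wall was labelled with Cy3 and hybridised to the Agilent mouse miRNA v21 array (4415 probes). The authors deposited the scanner output of 16 arrays, with a background-corrected signal intensity per spot that is not normalized between arrays (Agilent Feature Extraction, 10.5.1.1 per the labels and 10.7.3.1 per the file headers), and a table of total gene signal, also an intensity, which equals the scanner values for all 1881 miRNAs.

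Outlier-marked spots were dropped, spots averaged per probe, probes quantile-normalized as in the study's methods, probes averaged per miRNA, a floor of 1 signal unit set and log2 taken (R 4.3.3). Genotypes were compared with limma 3.58.1 with Benjamini-Hochberg adjustment over 495 miRNAs detected on at least 8 arrays, at 0.05. Within-array paralogue differences were compared by exact permutation. The scripts were tested on simulated data. Named miRNAs are the 7 members, the other arms of their hairpins, the miR-3074 products, the 3 nearest miRNAs of each bright member, and markers. Members and lists were chosen with earlier results of these data known. Alternatives covered background, normalization, outlier spots, probe summary, floor, detection filter, test, array weights, slide, replicate number and each array left out. Replicates are separate mice, as the labels number them.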

Additional observations from a re-analysis of the deposited data

Results flagged for a closer look

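In each genotype, the 7 members and the 3 paralogue differences were searched for a mouse far from the other 7, by its gap to the nearest mouse relative to the whole range. This gave 20 groups of 8 mice, of which chance marks about 1 in 20, or 1 here, and 2 were found. The miR-27b-3p signal of WT replicate 5 was 9.98, while the other WT mice lay between 9.68 and 9.82. Without it, the log2 fold change of miR-27b-3p was −0.08 (adjusted p = 0.145 from limma), and the miR-27 paralogue shift was 0.18 (adjusted p = 0.000466 by exact permutation). The difference of miR-24-2-5p minus miR-24-1-5p was 0.772 in Dgcr8+/- replicate 2, while the other Dgcr8+/- mice lay between 0.37 and 0.52. Without it, the genotype difference of this pair was −0.23 (adjusted p = 0.00373 by exact permutation).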

How the results depend on the processing

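The miR-27 paralogue shift kept its sign under all 34 alternatives. It lost the threshold under 1 of those with a test, 1 probe of miR-27b-3p against 1 of miR-27a-3p (0.0387). Some alternatives could not differ. The median of 2 probes equals their mean, and a floor of 4 lies below both signals. A scale factor cancels, so no normalization and either 75th percentile gave the same 0.164. The values within each slide had no test. With 1 mouse left out the miR-27 shift ranged from 0.177 to 0.212. The shift of the miR-24 5p arms kept its sign too, but did not pass with the slide as a block (−0.093), a replicate block (−0.195, adjusted p = 0.0938 by exact sign flips), all spots kept (−0.165) or 1 combination of probes (−0.137), and ranged from −0.234 to −0.152 with 1 mouse left out. The miR-23 shift passed with no normalization and with either 75th percentile (0.102 in each), which are the same test for a within-array difference. It also passed with cyclic loess (0.0971) and 1 combination of probes (0.125). With 1 mouse left out it ranged from 0.0446 to 0.108. Whether replicate numbers pair the mice was not settled. Of 8 same-numbered pairs, 5 had a correlation over 0.1 (range −0.141 to 0.496), and 3 of 8 WT arrays were most like their own number. Among the members and pairs, the replicate block changed no other call. It gave a miR-27 shift of 0.2 (adjusted p = 0.0234 by exact sign flips). Over all tested miRNAs it gave 140 lower and 147 higher.

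With no normalization, 6 members and 293 miRNAs were lower and 0 were higher, against 138 lower and 140 higher as reported. The log2 fold changes then turned to −0.433 for miR-23a-3p, −0.395 for miR-27a-3p, −0.243 for miR-24-1-5p and −0.344 for miR-24-3p. Scaling to the 75th percentile of all probes left 0 members higher, beside 114 higher and 151 lower of the 495 miRNAs, and turned miR-23a-3p (−0.0719) and miR-27a-3p (−0.0336). Scaling to probes detected on all arrays, where the median over all miRNAs was 0.145, gave 126 miRNAs lower and 210 higher, with 2 members higher, miR-24-3p and miR-24-1-5p, and turned miR-24-2-5p (0.0993). With all spots kept, 0 members were higher, beside 116 higher and 118 lower miRNAs. The deposited table turned miR-23b-3p (0.0343). MiR-27b-3p was lower, so that 1 member was lower, by the brightest probe (beside 140 miRNAs lower and 138 higher) and with array weights (147 lower and 169 higher), and with 1 mouse left out 0 to 1 members were lower, beside 133 to 150 miRNAs. The methods' t-test gave 141 miRNAs lower and 135 higher after Benjamini-Hochberg adjustment, with 0 members lower and 1 higher, and at the study's threshold (unadjusted p and a minimum log2 fold change of 0.4) 88 lower and 51 higher, 0 of them members. Causes were not tested. Dim signal limits the 5p arms of miR-24.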
